A study of Mus musculus with 9 samples.

Results

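Amino acids enter and leave cells, and move between compartments inside them, through carriers of the solute carrier (Slc) superfamily. The 7 families described here are Slc1, Slc3, Slc6, Slc7, Slc36, Slc38 and Slc43. Members were the genes of these families, chosen by gene symbol, among the 18193 genes that the array's annotation names by at least 1 probe set of a single gene. This gave 58 genes with 118 probe sets. Each gene was represented by its brightest probe set on average. In 47 of the 58 genes this average exceeded 4.54 (log2), the 25th percentile over probe sets, and these were tested together with all other expressed genes, 14524 in all. The other 11 (Slc1a6, Slc36a2, Slc38a4, Slc38a5, Slc6a4, Slc6a11, Slc6a12, Slc6a15, Slc6a16, Slc7a8 and Slc7a10) were not tested.

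The study hybridised 9 microarrays with RNA of iNKT (invariant natural killer T) cells, which are T cells with a nearly fixed receptor for lipids. The cells came from the thymus of mice of 8 to 12 weeks, 5 samples labelled Utx wildtype (WT1 to WT5) and 4 labelled Utx knock out (KO1 to KO4), each a biological replicate. Utx is the product of the X-linked gene Kdm6a and is a histone demethylase that acts on lysine residues of histone H3. The sources used here do not give the strain, any Cre driver, the deleted part of the gene, the sorting gate or whether animals were pooled. The titles name 3 batches: batch 1 holds WT1 and KO1, batch 2 holds WT2, KO2, KO3 and KO4, and batch 3 holds WT3, WT4 and WT5. The genotype difference below is therefore taken within batches 1 and 2, where WT1 and WT2 are the wildtype arrays, and batch 3 enters through the estimate of the spread.

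Carriers of these families differ in what they move. Slc3 proteins are heavy chains that bring Slc7 light chains to the cell surface, and the pair exchanges large neutral amino acids, cationic amino acids or cystine for glutamate. Slc1 holds the sodium-dependent glutamate carriers and the neutral exchangers Slc1a4 and Slc1a5, and Slc38 holds sodium-coupled carriers of glutamine and other small neutral amino acids. Some members of Slc36 and of Slc38 act at the lysosome, where amino acid levels are read by the kinase complex mTORC1. Slc6 holds carriers of neurotransmitters, glycine, taurine and creatine next to amino acid carriers. In T cells, Slc7a5 with Slc3a2, Slc1a5, Slc38a1 and Slc38a2 are known as the routes by which activated cells take up leucine and glutamine.

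Levels are log2 values throughout, and array medians lay between 5.97 and 6.09. The 4 probe sets of Kdm6a did not pass the test between genotypes. The one of highest level read 9.94, 9.98, 10.15, 9.79 and 9.996 on WT1 to WT5 and 10.01, 9.62, 10.05 and 10.07 on KO1 to KO4, which leaves the genotype labels unchecked, since the deleted part is not given. The labels call the animals matched for sex, but the Y-linked gene Eif2s3y read 13.58 on WT1 against 7.07 on KO1, and 10.32 on WT2 against 9.73 to 9.84 on KO2 to KO4. Xist, transcribed from the inactive X chromosome, ran from 4.80 to 6.79 on wildtype and from 7.84 to 10.06 on knockout arrays. Of the T cell and iNKT markers 2 of 9 were called lower, and the summed level of the list (log2 of the sum) was 15.30 to 15.46 on wildtype and 14.97 to 15.17 on knockout arrays. Lists of other cell types differed among themselves. The counts of this paragraph stand beside 7.88% of all genes called higher, 3.37% called lower and 30.8% at an unadjusted p under 0.05. Of the double-positive thymocyte markers 6 of 9 were called higher, with a sum of 14.02 to 14.55 on wildtype and 14.97 to 15.50 on knockout arrays. Of the macrophage and dendritic cell markers 3 of 14 were called higher and 5 had negative differences (sum 11.81 to 12.16 and 12.12 to 12.63). Of the B cell markers 2 of 7 were called higher and 2 had negative differences (sum 9.51 to 10.11 and 10.36 to 11.45). The stroma list had 1 of 8 called higher, the granulocyte list 0 of 6 and the erythroid list 0 of 1, with 1 gene at an unadjusted p under 0.05 in each of these 2. Of the G2 and M phase genes 22 of 23 were called higher. In sorted bulk RNA, fewer cells of a type and less RNA per cell cannot be told apart, and the part of these lists and of sex in the results below was not tested.

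RefSeq promoter windows (GRCm38.p6) were found for 41 of the 58 genes, and 250 bases upstream of the start are shown for Slc7a11 and Slc7a7, whose differences were positive, and for Slc6a3 and Slc6a14, which fell. Capitals mark matches, on either strand, to the amino acid response core TGATGNAA, bound by ATF4 with its partners, or to the E-box CACGTG, bound by Myc with Max. The windows are chr3:50443614-50443863 on the minus strand for Slc7a11, chr14:54417945-54418194 on the minus strand for Slc7a7 (1 of 5 annotated windows, of which 3 hold no match), chr13:73536497-73536746 on the plus strand for Slc6a3 and chrX:21714650-21714899 on the plus strand for Slc6a14. All are written 5′ to 3′ in the direction of the gene.
Slc7a11: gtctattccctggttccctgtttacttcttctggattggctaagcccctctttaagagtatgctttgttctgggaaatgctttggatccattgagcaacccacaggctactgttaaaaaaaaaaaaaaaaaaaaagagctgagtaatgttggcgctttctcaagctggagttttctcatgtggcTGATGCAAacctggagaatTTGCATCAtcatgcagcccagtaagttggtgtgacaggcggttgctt
Slc7a7: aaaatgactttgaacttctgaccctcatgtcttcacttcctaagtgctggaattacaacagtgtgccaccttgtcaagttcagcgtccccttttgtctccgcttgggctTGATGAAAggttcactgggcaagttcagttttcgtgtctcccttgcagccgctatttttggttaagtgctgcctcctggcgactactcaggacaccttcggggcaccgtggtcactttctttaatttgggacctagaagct
Slc6a3: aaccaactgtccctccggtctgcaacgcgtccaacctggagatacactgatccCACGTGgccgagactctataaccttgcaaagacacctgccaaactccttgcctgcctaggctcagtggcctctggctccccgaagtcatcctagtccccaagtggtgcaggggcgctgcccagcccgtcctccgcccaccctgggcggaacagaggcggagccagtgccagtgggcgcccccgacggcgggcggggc
Slc6a14: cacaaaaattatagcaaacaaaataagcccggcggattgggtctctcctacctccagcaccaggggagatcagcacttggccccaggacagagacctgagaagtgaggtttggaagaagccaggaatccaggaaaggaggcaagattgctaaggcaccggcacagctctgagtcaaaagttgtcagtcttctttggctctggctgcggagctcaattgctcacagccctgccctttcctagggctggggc

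Slc7a11 held the amino acid response core on both strands, starting 66 and 47 bases before the start site. This core was in 3.45% of all 32851 windows of this length, or in 3.91% of 27025 genes in any window, and among the 41 members in 3: Slc7a11, Slc7a7 and Slc6a21. Slc6a21 had a difference of -0.09. The windows of Slc36a4, Slc38a2, Slc38a6 and Slc38a9, whose differences were positive as well, did not hold this core. Those of Slc6a5, which fell, held no match. The E-box was in 6.02% of windows (6.86% of genes) and in 9 members, of which Slc6a3 is shown. The Slc6a14 window held neither motif, nor the antioxidant response core TGACNNNGC, which was in 10.2% of windows (11.5% of genes) and in 8 members, among them Slc38a2, Slc7a1 and Slc7a6. A match is a run of letters and was not tested as a binding site.

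Of the 47 expressed carriers, 6 differed between knockout and wildtype cells at an adjusted p under 0.05 (12.8%, limma with batch as a factor), against 11.3% of all genes tested. Slc43a3 and Slc6a8 rose, against 7.88% of all genes, and Slc6a3, Slc6a5, Slc6a14 and Slc7a12 fell, against 3.37%. The share of carriers called was thus near the background. All values of the 2 genotypes lay apart in 17 carriers (36.2%) and in 35.0% of all genes. The median difference was 0.06 (log2, knockout minus wildtype) over the carriers and 0.11 over all genes. Carriers above the array median on every array and the other carriers are given apart: of the first, 1 of 18 was called, against 12.1% of such genes, and of the second 5 of 29, against 9.72%. The 1 call in the first set was higher (9.11% of such genes were called higher and 2.98% lower), and the second set had 1 higher and 4 lower (5.64% and 4.09% of such genes). Genotypes did not overlap in 6 of the 18 (36.8% of such genes) and in 11 of the 29 (31.6%). The carriers of higher signal had a median difference of 0.33, with 14 of 18 positive (77.8%), beside 0.20 and 68.1% for all genes of that class. For the other carriers the median was -0.22, with 11 of 29 positive (37.9%), beside -0.07 and 43.3% for such genes. With equal interquartile ranges 9 of the 18 were positive, against 41.4% of such genes, and their median was -0.0088. An unadjusted p under 0.05 was found in 15 of 47 carriers (31.9%) and in 30.8% of all genes, against which the counts of unadjusted p below are to be read.

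Slc43a3, a carrier that moves purine nucleobases although its family is named for amino acids, had the firmest difference. It read 7.38, 7.79, 7.60, 7.80 and 7.49 on WT1 to WT5 and 9.45, 8.58, 9.15 and 9.56 on KO1 to KO4. The lowest knockout array, KO2, was above the highest wildtype array, WT4. The difference was 1.61 (SE 0.29, 3.04-fold, adjusted p = 0.0135 by limma), with 2.06 in batch 1 and 1.30 in batch 2. It was called without any single array, and not without the 3 arrays of batch 3 (1.61, adjusted p = 0.0615). Its relatives Slc43a1 and Slc43a2, exchangers of large neutral amino acids without a heavy chain, did not pass.

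Slc6a8, the creatine carrier, encoded on the X chromosome, rose at a level below the array medians in wildtype cells. It read 4.89, 5.17, 4.86, 4.94 and 5.34 on WT1 to WT5 and 6.12, 5.72, 5.70 and 6.16 on KO1 to KO4, so that all knockout arrays were above all wildtype arrays. The difference was 0.91 (SE 0.23, adjusted p = 0.0391 by limma), with 1.23 in batch 1 and 0.69 in batch 2. When each probe set was tested singly, the other one of Slc6a8, of similar mean level, gave 0.54 and did not pass. The call held without KO2 and was lost without any other single array, where the adjusted p lay between 0.0525 (without WT5) and 0.128 (without WT1).

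None of the carriers that fell was above the array median on every array. Slc6a3, the dopamine carrier, read 5.25, 5.85, 5.52, 5.31 and 5.70 on WT1 to WT5 and 4.72, 4.53, 4.44 and 4.52 on KO1 to KO4, the last 3 below the filter level. Its difference was -1.02 (SE 0.21, adjusted p = 0.0217 by limma), and -0.53 in batch 1 against -1.35 in batch 2. Slc6a14, an X-linked carrier of neutral and cationic amino acids, read 5.81, 6.25, 6.12, 5.85 and 6.01 on WT1 to WT5 and 5.24, 5.43, 5.29 and 5.13 on KO1 to KO4. Its difference was -0.81 (SE 0.18, adjusted p = 0.0255 by limma). In both genes the genotypes did not overlap, and all knockout levels were below the array medians.

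Slc6a5, a glycine carrier of inhibitory neurons, read 5.15, 5.63, 5.29, 5.54 and 5.28 on WT1 to WT5 and 4.83, 4.73, 4.62 and 4.52 on KO1 to KO4 (difference -0.73, SE 0.19, adjusted p = 0.0459 by limma). Slc7a12, a light chain relative without a known heavy chain partner among Slc3 proteins, read 5.76, 6.47, 6.33, 6.31 and 5.54 on WT1 to WT5 and 4.81, 5.08, 5.13 and 4.32 on KO1 to KO4 (difference -1.36, SE 0.33, adjusted p = 0.0358 by limma). No array of one genotype reached the range of the other in either gene. The other probe set of Slc6a5 gave -0.51. When each probe set was tested singly, neither this one nor the one used for Slc6a5 passed. The files hold no detection call, so these levels were not shown to be above background and no fold is given for genes of this range.

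WT2, the wildtype array of batch 2, had the highest wildtype value in each of these 4 genes. A fit without WT2 leaves KO1 against WT1 as the only contrast, 1 array of each genotype, with the spread taken from the other arrays, here and wherever a value without WT2 is given. In that fit none of the 4 was called, and the differences were -0.53 for Slc6a3 (adjusted p = 0.371), -0.56 for Slc6a14 (0.332), -0.33 for Slc6a5 (0.667) and -0.95 for Slc7a12 (0.411), all by limma. Without KO3, Slc6a3 had an adjusted p of 0.0505, Slc6a14 of 0.0562, Slc6a5 of 0.0913 and Slc7a12 of 0.0576. Slc6a14 also lost its call without WT5 (0.0528), and Slc7a12 without WT3 (0.0534) or WT4 (0.0589). Slc6a5 kept its call only without WT1 or KO1.

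**Figure D1:**
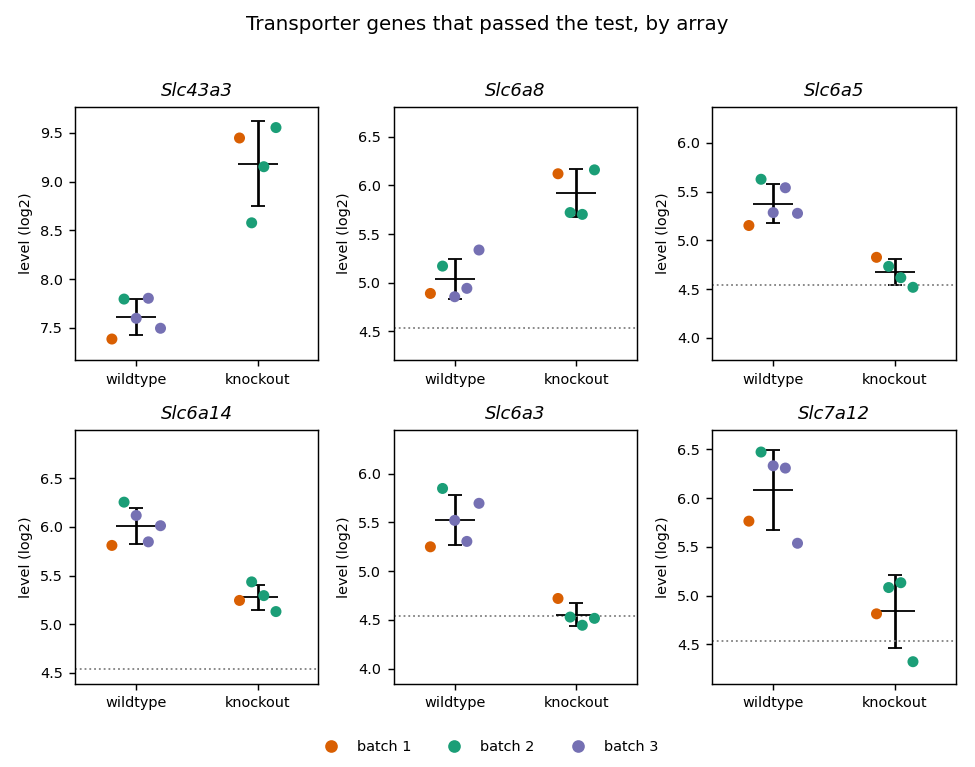
Level (log2) of the 6 carriers that passed the test, by genotype, 1 point per array coloured by batch, with mean and SD as lines and a dotted line at the filter level of 4.54 where it falls in range. The vertical span is the same in all panels; wildtype and knockout points do not overlap in any, and KO2 is the lowest knockout point for Slc43a3 at 8.58.

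Of 8 light chains expressed, Slc7a12 fell and 7 did not pass. Of the 8 differences 5 were positive (62.5%), beside 59.3% of all genes. An unadjusted p under 0.05 was found by limma in 5, of both signs, against 30.8% of all genes. The genotypes did not overlap in 5, against 35.0% of all genes. No test was made over the light chains as a group. The xCT chain Slc7a11, which imports cystine for glutathione in exchange for glutamate, had the widest positive difference of all carriers without passing. Its level was 5.18, 6.45, 5.81, 5.68 and 6.08 on WT1 to WT5 and 8.27, 6.70, 7.31 and 8.35 on KO1 to KO4. No knockout array fell into the wildtype range, but the knockout SD was 0.79, and the difference was 3.09 in batch 1 and 1.004 in batch 2. The fitted difference was 1.84 (SE 0.53, 95% interval 0.63 to 3.04, adjusted p = 0.0589 by limma). It passed without KO2 (2.11, adjusted p = 0.0190). Without WT2 the value is the batch 1 pair alone (3.09, adjusted p = 0.0311). Its other probe set gave 1.55 (adjusted p = 0.0703 over all probe sets).

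Slc7a7, a light chain that exports cationic amino acids in exchange for neutral ones, ran from 3.97 to 4.66 on wildtype and from 4.94 to 5.94 on knockout arrays. Its difference was 1.12 (SE 0.32, adjusted p = 0.0552 by limma), 1.97 in batch 1 and 0.56 in batch 2, with a wildtype mean of 4.29 below the filter level. It passed without KO2 (1.20, adjusted p = 0.0487), and without WT2 the batch 1 pair alone gave 1.97 (adjusted p = 0.0170). Slc7a6, of the same exchange type and widely expressed in lymphocytes, read 9.74, 9.57, 9.66, 9.63 and 9.67 on WT1 to WT5 and 10.06, 9.81, 10.25 and 10.26 on KO1 to KO4. These ranges did not overlap, and the difference of 0.45 (SE 0.18, adjusted p = 0.131 by limma) did not pass. The other probe set of Slc7a6, of similar mean level, gave 0.57, with -0.0049 in batch 1 and 0.96 in batch 2. Its genotypes overlapped.

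Slc7a5, the leucine and tryptophan carrier that pairs with Slc3a2, read 9.36, 9.44, 9.30, 9.60 and 9.36 on WT1 to WT5 and 9.74, 9.52, 9.59 and 9.66 on KO1 to KO4. WT4 lay within the knockout range, and the difference was 0.24 (95% interval -0.12 to 0.61, adjusted p = 0.331 by limma). The heavy chain Slc3a2, also known as CD98, read 11.01, 10.54, 10.79, 10.92 and 10.63 on WT1 to WT5 and 10.61, 10.72, 10.74 and 11.24 on KO1 to KO4. The ranges overlapped throughout, and the difference was 0.05 (95% interval -0.48 to 0.59, adjusted p = 0.896 by limma), -0.40 in batch 1 and 0.36 in batch 2. With arrays scaled to equal interquartile ranges the differences of both were negative (-0.10 for Slc7a5 and -0.41 for Slc3a2), so no direction holds for the pair. The renal heavy chain Slc3a1 had a difference of 0.42 (adjusted p = 0.383). The remaining light chains Slc7a9, Slc7a13 and Slc7a15 had differences of 0.23, -0.81 and -0.0041 and adjusted p of 0.390, 0.111 and 0.992.

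Among the carriers of cationic amino acids, 0 of 5 passed, with 1 at an unadjusted p under 0.05. Slc7a1, the main arginine importer of many cells, read 12.23, 12.25, 12.25, 12.18 and 12.32 on WT1 to WT5 and 12.42, 12.39, 12.43 and 12.43 on KO1 to KO4. All knockout arrays lay above all wildtype arrays by a narrow margin, and the difference was 0.17 (95% interval -0.14 to 0.49, adjusted p = 0.422 by limma). It was -0.47 with equal interquartile ranges and -0.0645 over the mean of its probe sets. Slc7a2, the inducible arginine carrier of macrophages and other cells, ran from 4.18 to 4.75 on wildtype and from 5.07 to 6.89 on knockout arrays. Its difference was 1.31 (SE 0.47, adjusted p = 0.103 by limma), with a wildtype mean of 4.39 below the filter level. At this probe set the batches were nearly equal at 1.22 and 1.37. The other probe sets of Slc7a2, all under the filter, gave 1.08, 0.10 and 0.10 in batch 1 and 0.13, -0.51 and 0.26 in batch 2. Slc7a3, Slc7a4 and Slc7a14 had differences of 0.16, -0.09 and 0.06.

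No carrier of glutamine and small neutral amino acids passed (0 of 5, 1 with an unadjusted p under 0.05). Slc38a2, which amino acid starvation induces in many cells, read 10.28, 10.09, 10.26, 10.20 and 10.03 on WT1 to WT5 and 10.72, 10.46, 10.94 and 11.17 on KO1 to KO4. Knockout arrays were all above wildtype arrays, and the difference was 0.63 (SE 0.22, 95% interval 0.13 to 1.14, adjusted p = 0.0973 by limma), with batch values of 0.44 and 0.76. The remaining probe sets of Slc38a2 gave 0.56 and 0.14.

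Slc1a5, an exchanger through which glutamine enters proliferating cells, read 10.29, 9.73, 10.22, 9.999 and 9.91 on WT1 to WT5 and 9.78, 10.04, 10.01 and 10.44 on KO1 to KO4. The batches opposed each other (-0.51 and 0.43), and the difference was 0.06 (95% interval -0.50 to 0.61, adjusted p = 0.898 by limma), or -0.32 with equal interquartile ranges. Slc38a1, a glutamine carrier high in T cells, read 12.38, 12.31, 12.41, 12.25 and 12.39 on WT1 to WT5 and 12.23, 12.30, 12.29 and 12.28 on KO1 to KO4. The ranges overlapped, and the difference was -0.08 (95% interval -0.40 to 0.25, adjusted p = 0.747 by limma). Its other probe set gave 0.23. Slc1a4 and Slc38a3 had differences of -0.36 and -0.26 and adjusted p of 0.499 and 0.399.

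**Figure D2:**
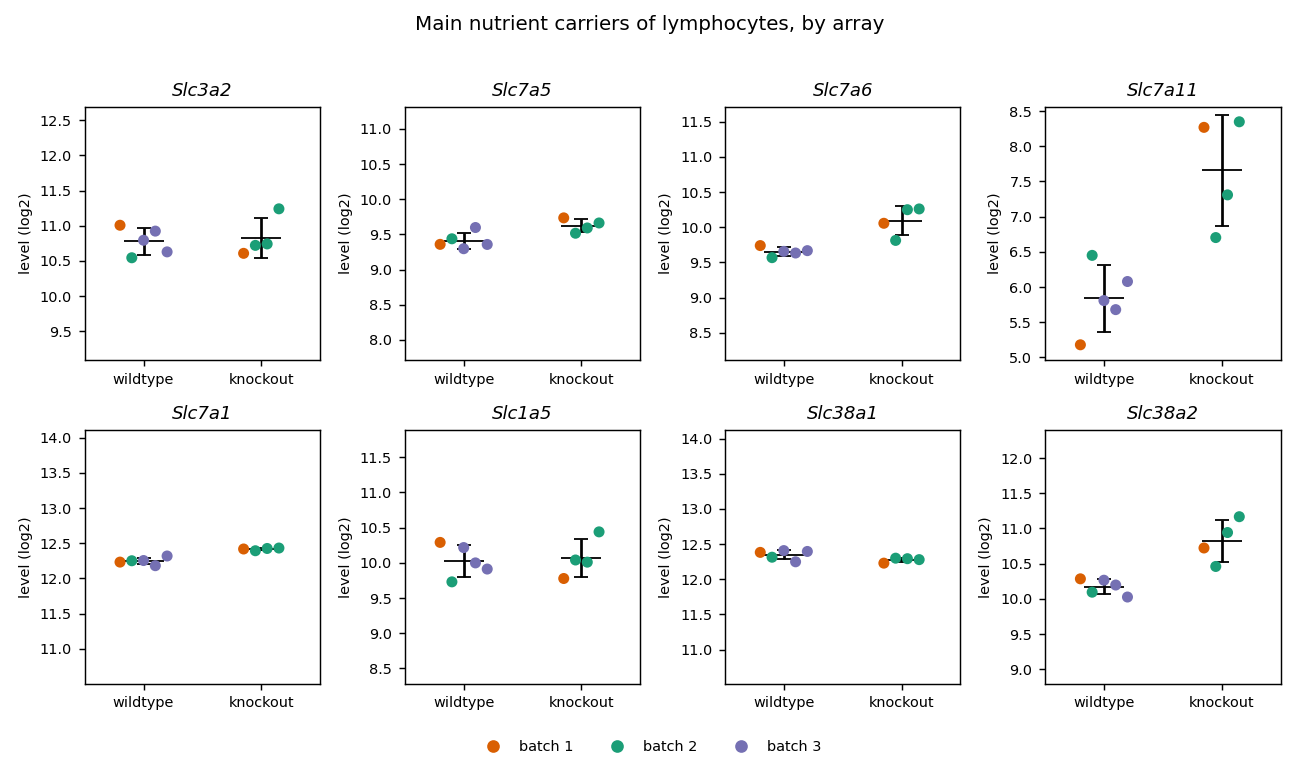
Level (log2) of 8 carriers named for nutrient uptake in lymphocytes, by genotype, 1 point per array coloured by batch, with mean and SD as lines. All panels span the same number of log2 units; the knockout points of Slc7a11 run from 6.70 to 8.35, whereas those of Slc38a1 lie between 12.23 and 12.30.

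At their brightest probe sets the glutamate and aspartate carriers all had negative differences, and none of the 4 passed (1 with an unadjusted p under 0.05). All 4 were among the genes not above the array median on every array, of which 43.3% had positive differences. Slc1a2, the main glutamate carrier of astrocytes, ran from 6.03 to 7.24 on wildtype and from 5.09 to 6.05 on knockout arrays (difference -1.04, SE 0.40, adjusted p = 0.122 by limma). Slc1a1, Slc1a3 and Slc1a7 had differences of -0.65, -0.55 and -0.31 and adjusted p of 0.180 to 0.304. Other probe sets of Slc1a3 past the filter gave 0.10, -0.09 and -1.07, and the mean over all its probe sets gave -0.07. A probe set of Slc1a3 under the filter was higher on every knockout array (4.19 to 5.08) than on wildtype arrays (2.98 to 3.90). The batches differed: over these 4 genes the median difference was 0.07 in batch 1 and -1.14 in batch 2. WT2 held the highest wildtype value for Slc1a1, Slc1a2 and Slc1a3. Without it Slc1a1 had 0.22 and Slc1a2 -0.05, while without batch 1 Slc1a2 (-1.71, adjusted p = 0.0331) and Slc1a1 (-1.23, 0.0229) were called lower.

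Carriers of the lysosome and proton-coupled carriers did not pass either (0 of 5, 2 with an unadjusted p under 0.05), and 4 of 5 differences were positive, beside 59.3% of all genes. Slc38a9, a lysosomal arginine sensor that signals to mTORC1, read 8.37, 7.96, 8.29, 7.71 and 8.50 on WT1 to WT5 and 8.76, 8.62, 8.72 and 9.49 on KO1 to KO4. At this probe set the genotypes did not overlap, KO4 stood apart, and the difference was 0.75 (SE 0.32, adjusted p = 0.153 by limma). The other probe sets of Slc38a9 gave 0.93, 0.75, 0.60, 0.38, 0.17 and -0.17. The genotypes lay apart at those of 0.93 and 0.38 and overlapped at the rest. Slc36a4, a high-affinity carrier of proline and tryptophan, ran from 9.68 to 9.80 on wildtype and from 9.97 to 10.34 on knockout arrays (difference 0.49, SE 0.16, adjusted p = 0.0885 by limma). Its batches were close at 0.60 and 0.41.

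Slc36a1, the lysosomal proton-coupled carrier of small amino acids, read 8.21, 7.39, 7.91, 7.95 and 7.59 on WT1 to WT5 and 7.17, 7.45, 7.64 and 7.40 on KO1 to KO4. Its difference of -0.35 (adjusted p = 0.380 by limma) came from batch 1 (-1.04) and was 0.11 in batch 2. Slc36a3 and the lysosomal glutamine carrier Slc38a7 had differences of 0.26 and 0.49. The Slc38 members outside these roles, Slc38a6 and Slc38a10, had differences of 1.01 and 0.50 (adjusted p = 0.233 and 0.248 by limma). Slc38a6 spread widely among knockout arrays, from 7.98 on KO2 to 10.02 on KO4.

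In the Slc43 family Slc43a2 read 9.95, 9.73, 9.77, 9.85 and 9.86 on WT1 to WT5 and 9.84, 9.67, 9.82 and 10.42 on KO1 to KO4. KO4 alone lay above the wildtype range, and the difference was 0.10 (95% interval -0.42 to 0.63, adjusted p = 0.782 by limma), or -0.27 with equal interquartile ranges. Slc43a1 had a difference of 0.67 (adjusted p = 0.235), 1.42 in batch 1 and 0.16 in batch 2.

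The Slc6 family is the largest, with 13 expressed members of 18 measured, of which Slc6a8 rose, 3 fell and 9 did not pass. Differences were negative in 10 of 13, and the median was -0.22. Among all expressed genes not above the array median on every array, 43.3% of differences were positive and the median was -0.07. Of the 13, only the taurine carrier Slc6a6 was above the array median on every array, from 9.50 to 9.65 in wildtype and from 9.02 to 9.62 in knockout cells, with a difference of -0.17 (adjusted p = 0.571 by limma). Slc6a19, a neutral amino acid carrier of gut and kidney, had a difference of 0.68 (adjusted p = 0.163 by limma), and was called without KO2 (0.86, adjusted p = 0.0355). Slc6a2, Slc6a7, Slc6a9, Slc6a13, Slc6a17, Slc6a18 and Slc6a21 had differences between -0.34 and 0.25. The genotypes did not overlap in Slc6a2 and Slc6a7, whose differences were -0.22 and -0.24.

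**Figure D3:**
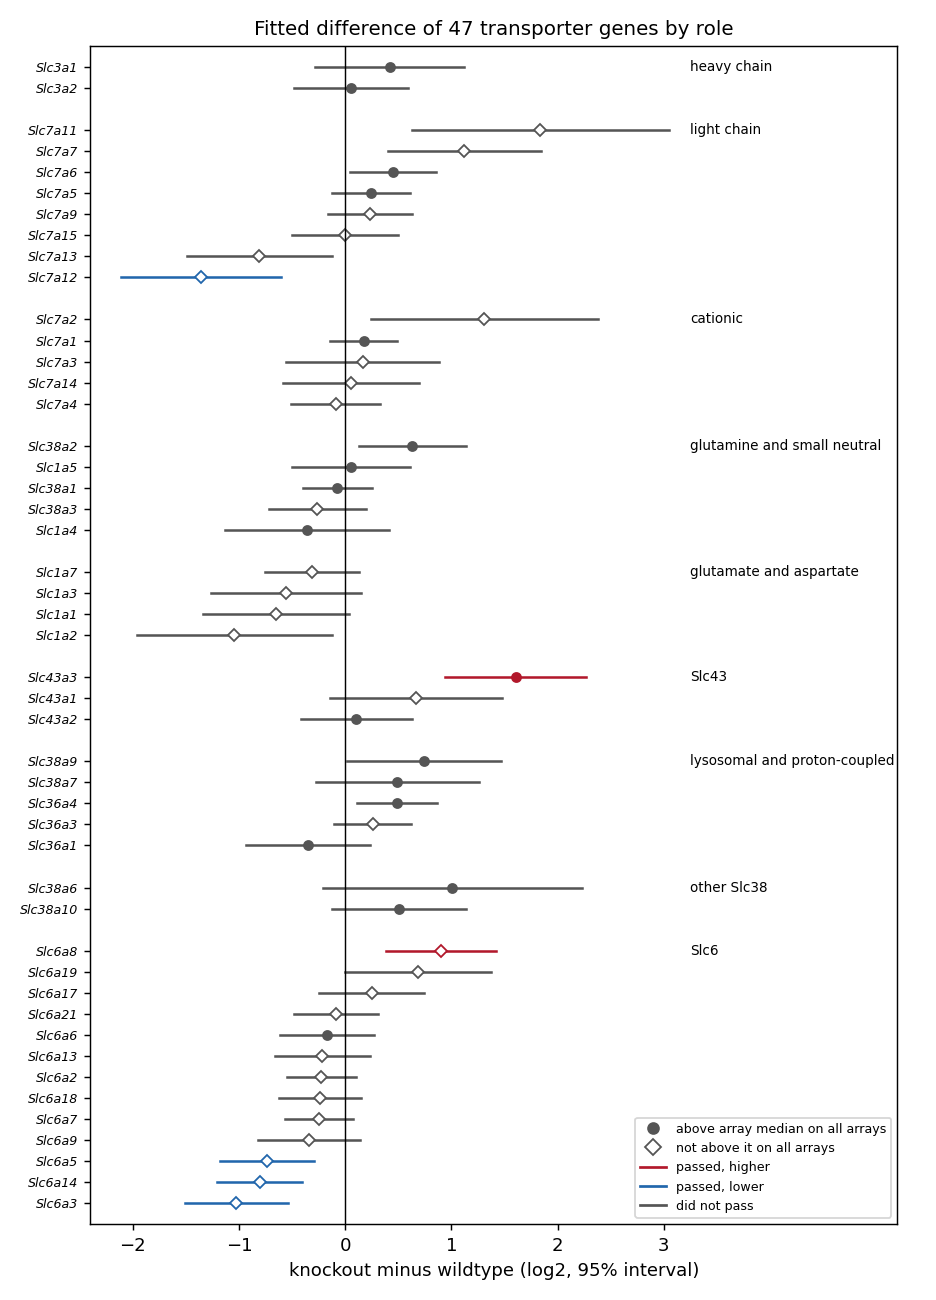
Fitted difference (log2, knockout minus wildtype) of the 47 expressed carriers with its 95% interval, ordered by role; filled circles are carriers above the array median on every array and open diamonds the others. Slc43a3 at 1.61 is the one coloured filled circle, and the 5 other coloured points are open diamonds.

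The sign of the difference was the same in batches 1 and 2 in 34 of 47 carriers (72.3%) and in 65.3% of all genes. Batch 1 rests on 1 array of each genotype. The batches were closest for Slc6a13 (-0.21 and -0.22) and Slc7a1 (0.19 and 0.17). They were farthest apart for Slc7a11 (3.09 and 1.004), Slc1a2 (-0.05 and -1.71) and Slc1a4 (0.60 and -0.997).

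**Figure D4:**
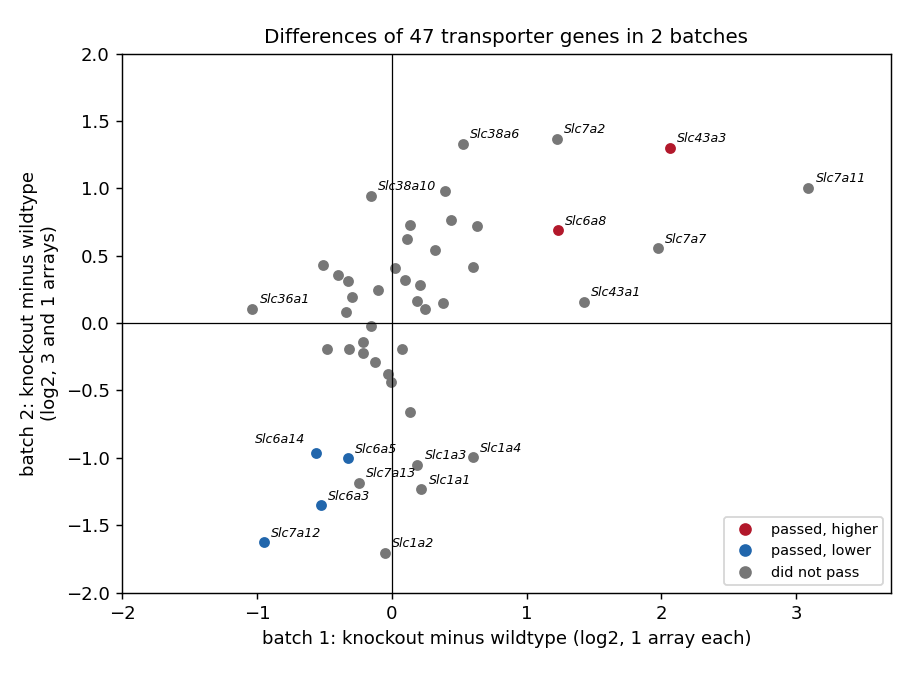
Difference (log2, knockout minus wildtype) of each of the 47 expressed carriers within batch 1, horizontal, and batch 2, vertical, coloured by the test. Slc7a11 lies farthest right at 3.09, and the glutamate carriers Slc1a1, Slc1a2 and Slc1a3 lie low near the vertical line.

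Interquartile ranges of the arrays ran from 3.45 to 3.84 on wildtype and from 3.80 to 4.29 on knockout arrays. The median of all genes was 0.11 as deposited, 0.02 after quantile normalization and -0.06 with equal interquartile ranges, and the median of the carriers 0.06, -0.04 and -0.10. The carriers called split into 2 higher and 4 lower as deposited, 3 and 4 after quantile normalization, and 5 and 3 with equal interquartile ranges. Slc43a3, Slc6a8, Slc6a3, Slc6a14 and Slc7a12 were called in all 3.

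Genes that sense or use amino acids were described by the same fit. Of 31 genes of amino acid sensing upstream of mTORC1, Mtor, the kinase itself, rose (1.18, SE 0.28, adjusted p = 0.0336 by limma) and Sesn2, a leucine sensor that restrains mTORC1, fell (-0.69, SE 0.17, adjusted p = 0.0394). The mean over the probe sets of Mtor gave 0.24 (adjusted p = 0.291) and of Sesn2 -0.37 (0.179). Both calls ended without WT2 (0.65 and -0.39), WT3, WT4, WT5 or KO3, and that of Sesn2 also without KO2 or KO4. The median over this list was 0.21.

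Of 21 expressed genes of the ATF4 response, 2 rose: Atf5, a factor that ATF4 induces (0.93, SE 0.17, adjusted p = 0.0137 by limma), and Gpt2, which makes alanine from pyruvate and glutamate (2.76, SE 0.57, adjusted p = 0.0217). Slc7a11 and Slc38a2 are known targets of the same factor. Atf4 itself had a difference of -0.16 (adjusted p = 0.553). Of 18 aminoacyl-tRNA synthetases only Aars, for alanine, rose (1.03, SE 0.22, adjusted p = 0.0259). Of 18 glutamine and glutamate enzymes 3 rose: Gclm, a subunit of the enzyme that begins glutathione synthesis (0.72, adjusted p = 0.0191), Ctps, which makes CTP with glutamine (0.73, adjusted p = 0.0203), and Gpt2. Without WT2 the adjusted p of Atf5 was 0.172, of Gpt2 0.285, of Aars 0.351, of Gclm 0.207 and of Ctps 0.0838. Aars also lost its call without KO3 (0.0562) and Ctps without WT1 or KO1 (0.0656 and 0.0653). With equal interquartile ranges Ctps gave 0.24 (adjusted p = 0.478).

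Among 18 expressed amino acid carriers of other families, Slc16a10, a carrier of aromatic amino acids, fell by 1.32 (SE 0.23, adjusted p = 0.0122 by limma), a call kept without any single array. It was lost over the mean of its probe sets (-0.66, adjusted p = 0.0756), with array weights (0.0546) and without batch 3 (0.0509). Slc25a13, the mitochondrial aspartate and glutamate exchanger, rose by 0.73 (SE 0.18, adjusted p = 0.0406), a call kept, among fits without single arrays, only without KO2. After quantile normalization it gave 0.46 (adjusted p = 0.139). Of 10 genes of Myc and its partners, Mxi1 (1.23, adjusted p = 0.0105) and Mxd3 (0.92, adjusted p = 0.0277), which compete with Myc for Max, rose. Both lost their calls without WT2 (adjusted p = 0.125 and 0.103), and Mxd3 also without WT1, WT3, WT5, KO1 or KO3. With equal interquartile ranges Mxd3 gave 0.49 (adjusted p = 0.142). Myc, a known inducer of Slc7a5 and Slc1a5, had a difference of -0.14 (adjusted p = 0.782), -0.52 in batch 1 and 0.12 in batch 2. These counts stand beside 7.88% of all genes called higher and 3.37% called lower, and no test was made over the lists.

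The 11 carriers under the filter ranged from 2.31 to 5.12 over all arrays. In Slc7a8, a light chain for neutral amino acids, every knockout array (4.56 to 5.12) was above every wildtype array (3.83 to 4.35), and the same held for Slc38a4 (4.37 to 4.96 against 3.86 to 4.15). Slc1a6, Slc6a12 and Slc6a15 were lower on every knockout array. These levels were not tested.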

How the data were processed

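The authors deposited log2 expression values made with RMA (per the submitters' processing notes), 1 per probe set (45101) and array, from amplified, biotin-labelled total RNA (per the labels' protocols). RMA alone leaves arrays with nearly equal distributions, which these are not; the sources used here do not say whether another step followed. The number of arrays limits the precision.

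Gene names came from the platform annotation, which gives a single gene for 34945 probe sets (34741 found in RefSeq), several for 932 and none for 9160, beside 64 control probe sets. No arrays were duplicates. The titles gave group, number and batch. Limma (version 3.58.1, R 4.3.3) was run with lmFit and eBayes on genotype and batch as fixed factors over all 9 arrays and 14524 genes, two-sided, with Benjamini-Hochberg adjustment over all genes and a threshold of 0.05. Errors are standard errors (SE) of the fitted difference or standard deviations (SD); 95% intervals are from the same fit and unadjusted. P-values measure the spread between these samples. The fit was tested on simulated data with independent noise and random batch shifts. These do not copy the unequal interquartile ranges of the arrays, so the test does not cover them. "Called", "passed", "rose" and "fell" mean past the threshold.

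The members, the related gene lists and the marker lists were chosen with earlier results of these data known. Named with the value on every array are carriers called with the same sign in both batches and 11 nutrient carriers whatever their result; of related lists, at most 4 called genes of smallest p, and Myc and Atf4. Slc7a7, Slc7a2, Slc36a4, the glutamate carriers and other carriers given by range were singled out after their values were seen, as were Eif2s3y and Xist. Alternatives covered the batch term, a replicate block, filters, scalings, probe set choice, eBayes options, weights per array, other thresholds, and fits without batch 1, batch 3 or single arrays.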

Additional observations from a re-analysis of the deposited data

Results flagged for a closer look

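In 122 groups of arrays (2 genotypes of each carrier or related gene described), 8 held an array whose gap to its nearest neighbour took up most of the range of its group by Dixon's criterion, and chance alone gives about 1 in 20. Slc1a1 read 4.83 on KO1, with the other knockout arrays at 4.19 or below. Slc38a7 read 8.92 on KO4, with the next at 7.97. Slc38a9 read 9.49 on KO4, with the next at 8.76. Slc6a19 read 5.67 on WT3, with the next at 5.36. Slc7a4 read 6.07 on KO2, with the next at 6.42. Gpt2 read 10.06 on KO3, with the next at 8.25. Slc25a13 read 8.80 on KO2, with the next at 9.09. Kdm6a read 9.62 on KO2, with the next at 10.01.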

How the results depend on the processing

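As analysed, 6 carriers and 1634 genes were called. Without a batch term the counts were 20 and 6342, with batch as a random block 37 and 10045, with array weights 1 and 534, at adjusted p under 0.1 10 and 3033, and at adjusted p under 0.01 0 and 336. The random block and the fit without a batch term also use the wildtype arrays of batch 3 for the difference. With a filter at the 50th percentile 1 carrier of 21 tested was called, Slc43a3. Without batch 3, which leaves 6 arrays, 0 carriers and 339 genes were called by limma, with 12 carriers at an unadjusted p under 0.05 (15 as analysed, 31.9%, against 30.8% of all genes). Leaving out single arrays gave 1 to 10 carriers and 851 to 2062 genes. The members called ranged from 1 without KO3 to 10 without KO2, and were 3 without WT2, WT3, WT4 or WT5. The other filters, scalings, probe set choices and eBayes settings, and the fit without batch 1, gave 6 to 8 carriers, and Slc43a3 was called in each. Same-numbered arrays did not deviate together from their genotype means (correlations of -0.92, 0.09, 0.02 and 0.15 for numbers 1 to 4). Batch was not removed from these deviations, so they cannot show whether the numbers pair samples. The replicate block gave 14 carriers and 4290 genes. The value of -0.92 is that of WT1 and KO1, the arrays of batch 1, whose deviations mirrored each other. The sources used here do not say whether values were adjusted for batch before deposit; such a step would change what the SEs and within-batch differences measure, and its part was not tested.

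Signs turned as follows, the cause not being tested, and none of these differences was called as analysed. After quantile normalization and with equal interquartile ranges, Slc1a5 gave -0.18 and -0.32, Slc3a2 -0.11 and -0.41, Slc43a2 -0.13 and -0.27, and Slc7a5 -0.0375 and -0.10. Slc7a1 gave -0.47 with equal interquartile ranges and -0.0645 over the mean of its probe sets. Over the mean of probe sets and with the probe set of highest variance, Slc38a1 gave 0.0759 and 0.23 and Slc6a6 0.0706 and 0.26, and Slc43a2 gave -0.0087 with the latter. Without batch 1, Slc36a1 gave 0.11 and Myc 0.12, and with array weights Kdm6a gave 0.0223. With single arrays left out, the range was -1.23 to 0.22 for Slc1a1, -0.997 to 0.60 for Slc1a4, -0.51 to 0.43 for Slc1a5, -1.04 to 0.11 for Slc36a1, -0.16 to 0.95 for Slc38a10, -0.40 to 0.36 for Slc3a2, -0.11 to 0.25 for Slc43a2, -0.0665 to 0.0765 for Kdm6a and -0.52 to 0.12 for Myc. Over 888 refits of 41 genes described above, 691 kept direction and side of the threshold, 108 lost a call, 55 gained one and 34 turned sign; over 420 refits of the 20 other carriers, 376 kept both, 21 gained a call and 23 turned sign.

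The number of arrays limits what these comparisons can show: 1 wildtype array stands in each of batches 1 and 2. The files give no detection calls or background levels, so low levels cannot be set against background.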
